A study of Mus musculus with 2 samples.

Results

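Cadherins are calcium-dependent adhesion proteins of the cell surface, and 10 of their genes, Cdh1, Cdh2, Cdh3, Cdh4, Cdh6, Cdh7, Cdh8, Cdh10, Cdh11 and Cdh13, were followed in teratomas. The members were chosen by gene symbol, and 10 of the 45777 genes in the deposited mm10 table were such rows. RNA-seq of polyA RNA was available for 1 library of each of 2 groups, E14 teratomas, called wild-type here, and E14-Sox2TA/WT teratomas, called mutant. E14 is a mouse embryonic stem cell line with wild-type Sox2, and E14-Sox2TA/WT cells were derived from it by CRISPR/Cas9, with threonine 258 of Sox2 changed to alanine (T258A) on 1 allele and the other allele left wild type. Both kinds of cell were inoculated under the skin of BALB/c-nu mice, which lack most T cells, in 3 mice per group, and the teratomas were harvested 14 days later. The edited cells were selected as colonies grown from single cells, and how many clones or teratomas entered each library is not given in the sources used here. Both libraries are labelled as teratoma, although the labels' protocol text speaks of RNA from a stem cell line.

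Classical cadherins bind the same or a similar cadherin on the next cell through their outermost domain, and their cytoplasmic tail is tied to actin through catenins. Type I members include Cdh1 (E-cadherin) and Cdh3 (P-cadherin), which hold epithelia together, Cdh2 (N-cadherin) of neural and mesenchymal cells, and Cdh4 (R-cadherin). Type II members, here Cdh6, Cdh7, Cdh8, Cdh10 and Cdh11, mark subsets of neurons, neural crest or mesenchyme and help sort them. The group name does not cover Cdh13 (T-cadherin), which has cadherin repeats but is held in the membrane by a lipid anchor, lacks the tail that binds catenins, and is known as a receptor for adiponectin. When embryonic cells become neural they lose E-cadherin and gain N-cadherin, a switch that bears on the neural lineage and not on ectoderm as a whole.

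The deposited counts sum to 50529171 reads on genes for the wild-type library and 49030281 for the mutant. Levels are given in TPM, a share of all transcripts that is corrected for transcript length, so that levels of different genes can be compared. With 1 library per group, no difference has a replicate check and no p-value was computed. Intervals are exact 95% intervals of the read counts, cover counting error only, and compare these 2 libraries rather than the genotypes. In bulk tissue, fewer cells of a type and less RNA per cell cannot be told apart. A filter that asked for a TPM of 10 or more in either library left 11578 genes. Their median log2 ratio of mutant to wild-type, computed after adding 1 to each value, was -0.18 from TPM and 0.01 both from FPKM and from library totals.

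The mutant library held less cadherin RNA of neural type and more Cdh1. The summed TPM of the 10 members was 404.6 in the wild-type library and 228 in the mutant library, 1.77-fold lower. By the fold rule of the study, which asks for more than 2-fold and that TPM filter, Cdh2, Cdh4, Cdh8, Cdh10 and Cdh13 were lower and 0 members were higher, whereas 18.7% of all genes passing the TPM filter were lower and 10.8% were higher. Of the 10 members, 8 passed the TPM filter. Among these, Cdh4, Cdh8 and Cdh10 passed through the wild-type library alone, so that they had to be lower, while Cdh2 and Cdh13 passed in both libraries, where 12.5% of 8963 genes were called lower. Cdh3 and Cdh7 stayed under the filter in both. The median log2 ratio over the 10 members was -1.27, with 8 lower and 2 higher, and over all 18558 genes that reached a TPM of 1 in either library it was -0.06.

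**Figure D1:**
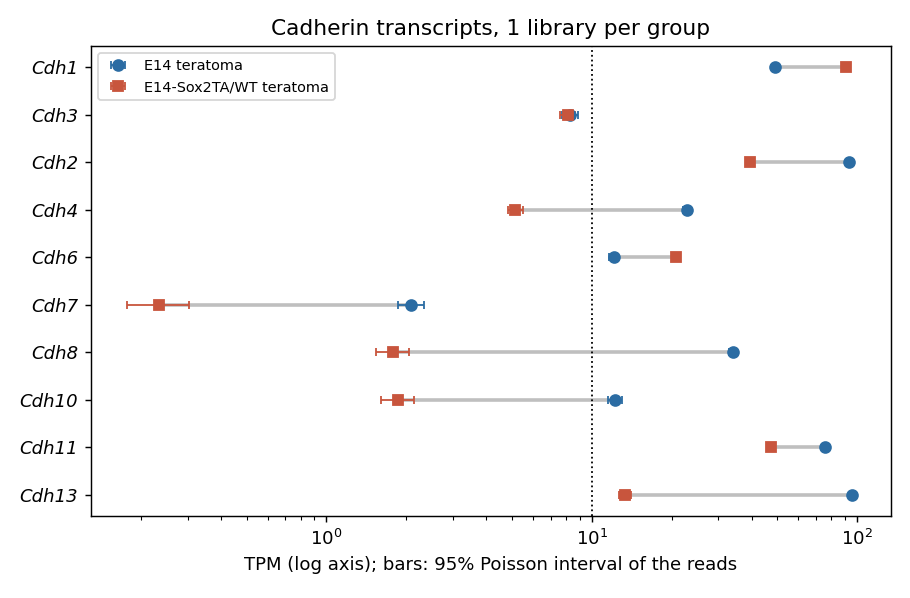
Level of each cadherin in TPM on a log axis, with circles for wild-type, squares for mutant, bars for the 95% Poisson interval of the reads and a dotted line at a TPM of 10. Cdh1 and Cdh6 were higher in the mutant library, the symbols of Cdh3 coincide, and the other 7 members were lower, Cdh8 by the widest gap, from 34.1 to 1.78.

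The order of abundance was different in the 2 libraries. In the wild-type library Cdh13 led with a TPM of 95.4 (93.4 to 97.4), followed by Cdh2 with 93.4 (91.6 to 95.1), and the intervals of these genes overlapped. Cdh11, Cdh1, Cdh8 and Cdh4 came next in that library, each apart from its neighbour in the order by more than counting error. Cdh10 and Cdh6, at 12.2 and 12.1, could not be ordered, and Cdh3 and Cdh7 were lowest. In the mutant library Cdh1 led with a TPM of 90.4 (88.7 to 92.1), ahead of Cdh11, Cdh2, Cdh6, Cdh13, Cdh3 and Cdh4, and the low levels of Cdh10 and Cdh8 could not be ordered. Cdh1 thus made up 12.1% of the members' summed TPM in the wild-type library and 39.5% in the mutant library. Cdh13 went from 23.6% to 5.86% of the sum, Cdh2 from 23.1% to 17.3% and Cdh8 from 8.43% to 0.779%. Cdh11 kept a similar share, 18.6% and 20.7%.

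**Figure D2:**
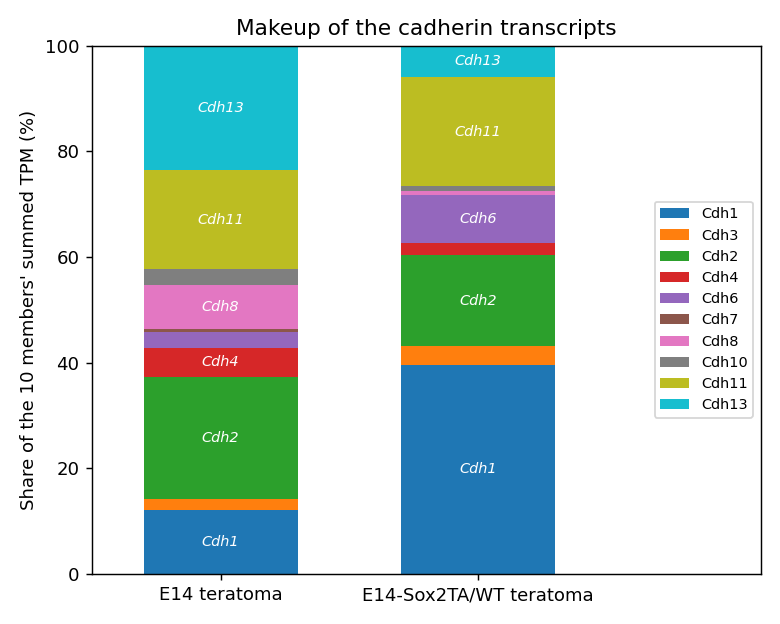
Share of the summed TPM of the 10 members that each cadherin held, in percent, with 1 stacked bar per library. Cdh1, the lowest block, covers 12.1% of the wild-type bar and 39.5% of the mutant bar, and Cdh13, the highest block, goes from 23.6% to 5.86%.

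The epithelial pair differed from each other. Cdh1 had 5215 reads, a TPM of 48.9, in the wild-type library against 10762 reads and 90.4 in the mutant library. It was 1.85-fold higher (1.79 to 1.91) in TPM, below the fold threshold, but 2.12-fold higher in FPKM and 2.13-fold higher in reads scaled by library total, both past it. On those 2 scales 13.7% and 13.6% of genes passing the filter were called higher, and Cdh1 also passed on TPM centred on the median of all genes, as 13.4% of genes did. At a fold above 1.5, Cdh1 and Cdh6 were both called higher, beside 18.2% of genes. Cdh3 had 803 and 881 reads, with a TPM of 8.26 and 8.11, and the interval of its fold, 0.891 to 1.08, covered no change. Its direction depended on the scaling, from -0.02 in log2 on TPM to 0.16 on library totals. The TPM of Cdh1 was 5.92 times that of Cdh3 in wild-type and 11.1 times in mutant.

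Both neural type I members were lower. Cdh2, the cadherin of neuroepithelium, neurons and much mesenchyme, had 10978 reads and a TPM of 93.4 in the wild-type library against 5143 reads and 39.5 in the mutant library, 2.36-fold lower (2.29 to 2.44). In reads scaled by library total Cdh2 was 2.07-fold lower, close to the threshold of the fold rule. Cdh4, known from retina and forebrain, had 3511 reads and a TPM of 22.8 against 889 reads and 5.15, 4.43-fold lower (4.11 to 4.77). The fold of Cdh4 was larger than that of Cdh2 by more than counting error.

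The 4 neural type II members were split. Cdh8, which marks subsets of forebrain and other neurons, had 3453 reads and a TPM of 34.1 in the wild-type library against 188 reads and 1.78 in the mutant. It was 19.2-fold lower (16.5 to 22.3), and 0.181% of the genes passing the TPM filter had a lower log2 ratio. Cdh10, a cadherin of neurons and of brain vessels, had 1103 reads and a TPM of 12.2 against 195 reads and 1.86, 6.56-fold lower (5.63 to 7.68). Cdh7, known from migrating neural crest and from neurons, was scarce, with 325 reads and a TPM of 2.09 against 57 reads and 0.234. It was 8.92-fold lower (6.72 to 12.0) in TPM but 5.53-fold lower in reads scaled by library total, because the transcript length that reads and FPKM imply for it was 1.40 times longer in the mutant library. For 85.3% of the 15638 genes with over 50 reads in both libraries, that length differed by less than 5%. Cdh6 (K-cadherin), found in developing kidney as well as in neural folds and crest, went the other way, from 2662 reads and a TPM of 12.1 to 4809 reads and 20.7. Cdh6 was 1.71-fold higher (1.63 to 1.80) in TPM and 1.97-fold higher in FPKM, below the threshold on both.

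RefSeq windows around a transcript start on GRCm38.p6, the build of mm10, were at hand for Cdh6, Cdh7, Cdh8 and Cdh10, 4 of the 10 members. The 250 bases before the start are shown for 3 of them, since Cdh8 and Cdh10 were the type II members with the lowest ratios above the TPM filter and Cdh6 was the one that was higher. The windows read 5′ to 3′ on the gene's strand, and capitals mark CpG, a C followed by G. They lie at chr8:99416472-99416721 on the minus strand for Cdh8, chr15:18820079-18820328 on the plus strand for Cdh10 and chr15:13173676-13173925 on the minus strand for Cdh6.
Cdh8: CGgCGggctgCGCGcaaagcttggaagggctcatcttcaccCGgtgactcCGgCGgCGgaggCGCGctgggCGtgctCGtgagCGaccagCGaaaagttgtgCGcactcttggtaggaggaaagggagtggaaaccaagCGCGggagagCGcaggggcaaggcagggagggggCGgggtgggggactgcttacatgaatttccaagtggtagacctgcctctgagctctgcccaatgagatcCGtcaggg
Cdh10: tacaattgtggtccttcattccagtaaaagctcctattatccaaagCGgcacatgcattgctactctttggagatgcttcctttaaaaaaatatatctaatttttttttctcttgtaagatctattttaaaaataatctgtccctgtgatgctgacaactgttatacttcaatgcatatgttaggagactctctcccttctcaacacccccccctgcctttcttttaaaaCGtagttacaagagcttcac
Cdh6: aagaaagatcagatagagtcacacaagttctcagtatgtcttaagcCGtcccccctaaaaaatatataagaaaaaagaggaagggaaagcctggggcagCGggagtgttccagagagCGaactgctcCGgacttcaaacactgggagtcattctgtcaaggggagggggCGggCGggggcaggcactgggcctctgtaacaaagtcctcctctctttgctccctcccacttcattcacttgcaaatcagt
The windows of Cdh8 and Cdh6 lie outside the GENCODE transcripts of the genes, though within their wider RefSeq extent, and that of Cdh10 lies in an intron of a longer GENCODE transcript. The Cdh8 window is rich in CpG, with 20 of them and 64.4% G and C, and the Cdh10 window is poor, with 2 and 36.8%. The Cdh6 window has 6 CpG, the median over 32851 such windows. The pair that was lower in the mutant library therefore does not share this base composition. The E-box CACCTG (on either strand), which Snail and Zeb repressors are known to bind, occurs in 0 of these 3 windows. The letters CATTGT (on either strand), a spelling of the core that Sox proteins are known to bind, also occur in 0 of them. These motifs occur in 17.2% and 10.7% of all windows, and their absence here says only that these letters are not in these windows. Other spellings of the Sox core were not counted, and the Cdh6 window holds AACAAAG. Cdh7 has 3 windows, not shown because they overlap its exons, and CACCTG was found once in each of 2 of them.

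Cdh11 (OB-cadherin), the type II cadherin of mesenchyme and of cells that form bone, had 9366 reads and a TPM of 75.4 in the wild-type library against 6546 reads and 47.4 in the mutant library. It was 1.59-fold lower (1.54 to 1.64) and below the fold threshold. Cdh13, found on vessel walls and on neurons, had 8960 reads and a TPM of 95.4 against 1408 reads and 13.4, 7.13-fold lower (6.74 to 7.55). Of the members past a TPM of 10 in both libraries, Cdh13 had the lowest ratio, and 1.03% of the genes passing the filter lay below it.

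**Figure D3:**
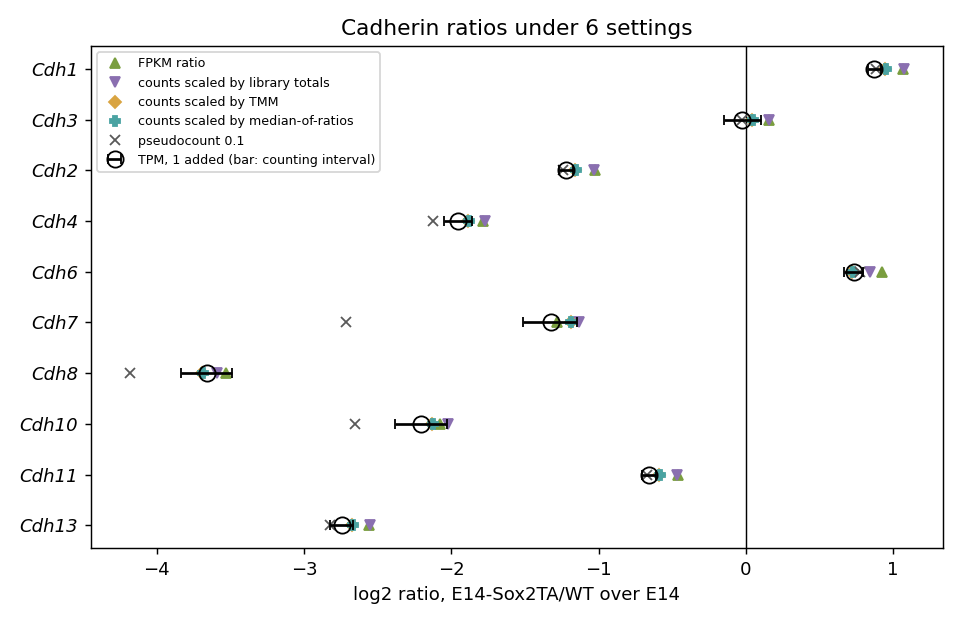
Log2 ratio of the mutant library to the wild-type library for each cadherin, with open circles for TPM with 1 added, bars for the counting interval and other symbols for FPKM, 3 scalings of the reads and a pseudocount of 0.1. Cdh8 lies at -3.66 on TPM and at -4.19 with the smaller pseudocount, Cdh1 lies at 0.87 or above, and the symbols of Cdh3 straddle 0.

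Within a library the ratio of one gene to another does not depend on how the library was scaled. Cdh1 stood at 0.524 times the TPM of Cdh2 in the wild-type library and at 2.29 times in the mutant library, a 4.37-fold difference (4.17 to 4.58). Against Cdh4 the ratio of Cdh1 was 8.19-fold higher (7.55 to 8.88), and against Cdh8 it was 35.4-fold higher (30.4 to 41.4). Against Cdh6 it was 1.08-fold higher (1.02 to 1.14), the smallest of the 9 differences, so that Cdh1 and Cdh6 kept nearly the same proportion. As groups, Cdh1 and Cdh3 had a summed TPM of 57.1 in the wild-type library and 98.5 in the mutant library. The 6 neural cadherins Cdh2, Cdh4, Cdh6, Cdh7, Cdh8 and Cdh10 had 176.7 and 69.2, 2.55-fold lower. Epithelial cadherin RNA was thus 0.324 times the neural in the wild-type library and 1.42 times in the mutant library, 4.40-fold higher. The medians of the log2 ratios, 0.42 for the epithelial pair and -1.64 for the neural group, lay 2.06 apart. The epithelial median is only the midpoint of Cdh1 at 0.87 and Cdh3 at -0.02, and the neural group includes Cdh6 at 0.73. Cdh2 alone held 93.4 and 39.5 of the neural sums.

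Cdh1, Cdh3, Cdh8, Cdh11 and Cdh13 lie on chromosome 8, whose genes were lower as a whole. The median log2 ratio of the 631 other genes on it that passed the TPM filter was -0.67, with quartiles of -1.22 and -0.14. Relative to that median, Cdh1 was higher by 1.55 and Cdh3 by 0.65, and 94.8% and 79.1% of the genes of the chromosome lay below them. Cdh11 sat at the median of its chromosome, 0.02 above it. Cdh8 and Cdh13 were at -2.98 and -2.07 relative to it, and 0% and 1.90% of the genes of chromosome 8 lay below them. Relative to the genes of their own window of 10 Mb the values were similar, 1.62 for Cdh1, 0.72 for Cdh3, 0.09 for Cdh11, -2.78 for Cdh8 and -1.85 for Cdh13. The part of a chromosome-wide shift in these values was not tested.

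Several cadherin genes lie side by side there. On GRCm38, Cdh8 lies from 99024471 to 99417666, Cdh11 from 102632095 to 102785493, Cdh3 from 106510852 to 106556911, Cdh1 from 106603350 to 106670247 and Cdh13 from 118140017 to 119324929. Only 46438 bases separate Cdh3 from Cdh1, and a pseudogene, Gm10073, lies between them. Its TPM was 22.003 and 45.1, although reads on a pseudogene may come from its parent gene. On the far side of Cdh3, Zfp90 went from 35.6 to 12.5, and beyond Cdh1, Chtf8 went from 170.1 to 123, so the nearest protein-coding neighbours past the filter on either side of the pair were lower while Cdh1 was higher. Cdh8 and Cdh11 lie 3214428 bases apart with no other gene past the TPM filter between them, and the gene on the other side of Cdh8, Got2, went from 238 to 117. The pseudogene Gm8730, past Cdh11, went from 1489 to 1324. Around Cdh13, Mphosph6 went from 93.3 to 87.2 and Hsbp1 from 535 to 196. Overlapping genes could have taken few of the reads, since the RefSeq genes that overlap members held at most 26 reads in a library.

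Cdh6 and Cdh10 lie on chromosome 15, from 13028699 to 13176407 and from 18818869 to 19016206, within 1 window of 10 Mb. There the median over 473 other genes was 0.28, higher than over all genes. Cdh6 was 0.45 above that median, and Cdh10 was 2.48 below it, at a log2 ratio of -2.21 where 1.27% of the genes of the chromosome lay lower. Against the median of the 14 genes of the shared window, Cdh6 was at -0.27 and Cdh10 at -3.21. The higher value of Cdh6 was thus no higher than that of the genes around it. Of the other members, Cdh7 lies on chromosome 1 from 109982237 to 110145272, Cdh4 on chromosome 2 from 179442423 to 179899377, and Cdh2 on chromosome 18. The medians of these chromosomes were between -0.24 and -0.14, near that of all genes.

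**Figure D4:**
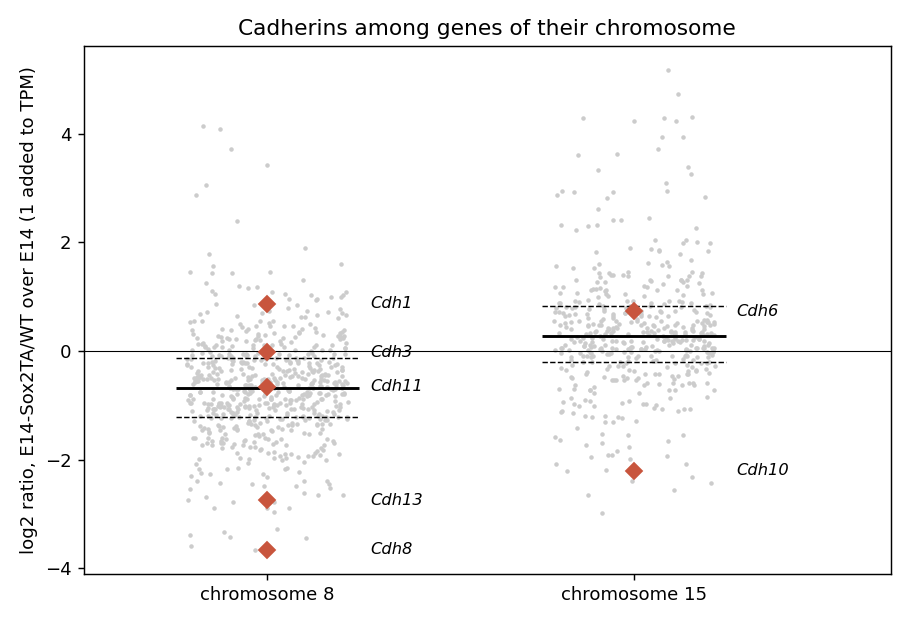
Log2 ratio of genes past the TPM filter on chromosomes 8 and 15 (grey points), with solid lines for the median, dashed lines for the quartiles and diamonds for the cadherins, Cdh3 being below that TPM. On chromosome 8 the cadherins spread from Cdh8 at -3.66 to Cdh1 at 0.87 around a median of -0.67, and on chromosome 15 Cdh10 lies at -2.21 and Cdh6 at 0.73 around a median of 0.28.

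The remaining classical and type II cadherins, 9 genes, were read for comparison. In this list 6 genes reached a TPM of 1 in a library, 0 were higher and 6 lower, and the median log2 ratio was -1.36, or -0.28 over all 9. Cdh22, a brain cadherin, went from a TPM of 23.6 to 3.45, 6.84-fold lower (6.11 to 7.68). Cdh20 went from 10.7 to 1.95, 5.49-fold lower (4.73 to 6.40), and Cdh24 from 26.0 to 6.86, 3.79-fold lower (3.48 to 4.13). These 3 passed the fold rule, which 18.7% of all genes past the filter did in this direction, but they reached a TPM of 10 in the wild-type library alone and so had to be lower. Cdh18, also of neurons, was 2.84-fold lower (2.28 to 3.55) at a TPM of 2.86 and 1.01. Cdh5 (VE-cadherin), the cadherin of vessel walls, lies on chromosome 8 between Cdh11 and Cdh3 and had a TPM of 21.1 and 19.5, 1.08-fold lower (1.02 to 1.15) in TPM but 1.06-fold higher in FPKM. Cdh15 (M-cadherin) of muscle precursors had 2.48 and 1.87. Cdh9, Cdh12 and Cdh19 had at most 76 reads in a library. Counting members and others, 7 such cadherins lie on chromosome 8 and 5 on chromosome 15.

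Among catenins, the neuronal forms were lower. In a list of 11 catenins and actin linkers, 10 genes passed the TPM filter, 0 were called higher and 2 lower, and the median log2 ratio was -0.32. Of all genes past the filter, 10.8% were called higher and 18.7% lower, so the count called lower was near that share. Ctnna2 (alpha-N-catenin) went from a TPM of 63.0 to 13.4, 4.68-fold lower (4.42 to 4.96), and Ctnnd2 (delta-catenin) from 45.0 to 6.78, 6.64-fold lower (6.22 to 7.09). Ctnnd2 passed the filter in the wild-type library alone. Of the more widely expressed catenins, Ctnna1 (alpha-E-catenin) had 129 and 157, 1.22-fold higher (1.19 to 1.25), Ctnnd1 (p120-catenin) had 79.1 and 61.3, 1.29-fold lower (1.26 to 1.32), and Ctnnb1 (beta-catenin) had 669.8 and 574, 1.17-fold lower (1.15 to 1.18). Arvcf, a relative of p120-catenin, had 76.9 and 38.5, 1.996-fold lower (1.92 to 2.07), just short of the threshold. Ctnna2 lies on chromosome 6, whose median is not given here, and Ctnnd2 on chromosome 15, where the median was 0.28. The part of chromosome-wide shifts in these values was not tested.

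Desmosomal cadherins, which join epithelial cells to keratin filaments, were higher, as was Cdh1. Of 9 listed genes, 4 reached a TPM of 1, all 4 were higher and the median log2 ratio was 1.15, or 0.42 over all 9. Dsc2 and Dsg2 passed the fold rule, as 10.8% of all genes past the filter did in this direction. They reached a TPM of 10 in the mutant library alone and so had to be higher. Dsc2 went from a TPM of 5.15 to 13.3, 2.58-fold higher (2.34 to 2.84), and Dsg2 from 4.51 to 10.7, 2.37-fold higher (2.16 to 2.60). Dsg3, of stratified epithelium, was 7.83-fold higher (5.78 to 10.8) at a TPM of 0.464 and 3.63. In the wild-type library Dsc1 and Dsg1a had 0 reads, against 11 and 30 in the mutant library, and Dsg1c and Dsg4 had 0 in both.

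Of 8 epithelial regulators all 8 were higher in TPM, although the interval of Ovol1, 0.971 to 1.69, covered no change, and the median log2 ratio was 0.65. Of the 3 past the TPM filter, 1 passed the fold rule on TPM and 3 did on FPKM and on library totals. The shares of all genes called higher on these scales were 10.8%, 13.7% and 13.6%. Of these 3 genes Grhl2, with a TPM of 9.02 and 16.8, passed the filter in the mutant library alone and so had to be higher. Elf3 was 2.68-fold higher (2.501 to 2.884), from a TPM of 17.4 to 46.7. Grhl2, a direct activator of Cdh1, was 1.86-fold higher (1.723 to 2.003), and Esrp1, a splicing factor of epithelia, was 1.76-fold higher (1.65 to 1.87). Among 7 repressors, 4 were higher and 3 lower, and the median was 0.50. Of the 5 past the filter, 1 was called higher (Snai1) and 2 lower (Zeb1 and Zeb2), beside 10.8% and 18.7% of all genes. Zeb2, 2.13-fold lower in TPM, was 1.86-fold lower in FPKM and in library totals and lost its call there. Snai1 passed the filter in the mutant library alone. Zeb1 went from 45.3 to 18.6, 2.44-fold lower (2.34 to 2.55). Snai1 went from 3.20 to 10.6, 3.31-fold higher (2.71 to 4.06), and Twist2 from 1.47 to 5.14, 3.49-fold higher (2.53 to 4.90). Tcf3 had 112 and 109, and Twist1 had 15.7 and 27.0. Restricted to genes past the TPM filter the median of the repressors was -0.04. Of 10 enzymes that mature or shed cadherins, with a median of -0.26, 7 passed the TPM filter. Of these 7, 0 passed the fold rule, beside 10.8% of all genes called higher and 18.7% called lower. Adam10, which cuts Cdh1 and Cdh2 from the surface, had 47.4 and 58.8, and Ncstn of gamma-secretase had 91.0 and 55.4. Pcsk5, a protease related to furin, had 7.42 and 4.67.

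**Figure D5:**
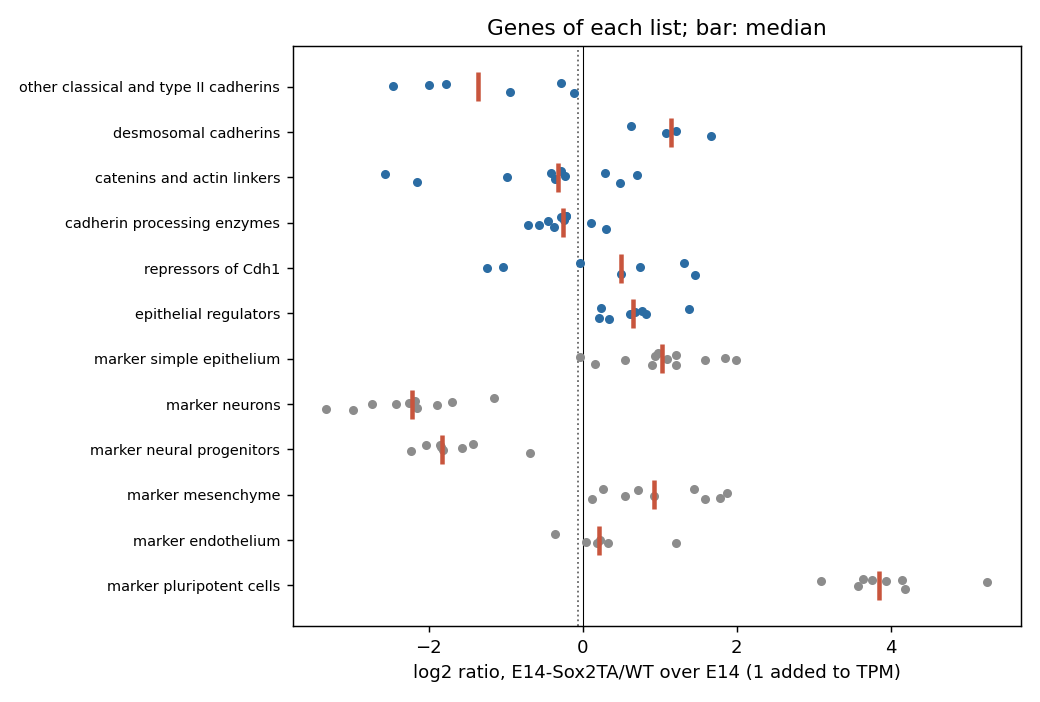
Log2 ratio of the mutant library to the wild-type library, with 1 added to each TPM, for genes of 12 lists (1 point per gene that reached a TPM of 1), with a bar at the median of each list and a dotted line at -0.06, the median of all genes. Other cadherins lie left of 0 and desmosomal cadherins and epithelial regulators right of it, while 2 catenins lie apart at -2.56 and -2.15.

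Markers of the cell types that carry these cadherins also differed between the libraries, and their part in the cadherin values was not tested. For these lists, here and below, the shares of all genes past the filter were 18.7% called lower and 10.8% called higher on TPM. For neurons, 10 of 10 markers were lower and passed the fold rule, 9 of them also on FPKM and on library totals, where Elavl4 was 1.98-fold and 1.97-fold lower. Rbfox3 and Syt1 reached a TPM of 10 in the wild-type library alone and so had to be lower. The summed TPM of the 10 neuron markers went from 3121 to 498. Tubb3, on chromosome 8, was 10.1-fold lower (9.88 to 10.4), Syt1 was 9.17-fold lower (8.48 to 9.93), and Stmn2 and Gap43 were 3.72-fold (3.61 to 3.82) and 4.47-fold (4.31 to 4.63) lower. The fold of Cdh8, 19.2, was larger than that of any of the 10 markers, and that of Cdh2, 2.36, lay within their range, near Elavl4 at 2.27. For neural progenitors, 8 of 8 were lower. Of the 7 past the filter, 6 passed the rule (5 on library totals), 3 of them past the filter in the wild-type library alone. The summed TPM of the 8 was 2928 and 865. Among them Sox1 was 5.06-fold lower (4.73 to 5.42), Hes5 4.33-fold (3.90 to 4.82), Fabp7 3.53-fold (3.46 to 3.59), Msi1 2.70-fold (2.62 to 2.80) and Nes 1.62-fold (1.57 to 1.66). For neural crest and Schwann cells, of 4 measured genes 2 were lower and 2 higher, with Sox10 at 21.6 and 6.81 and Erbb3 at 5.18 and 9.66.

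For simple epithelium, 11 of 12 markers were higher and 6 passed the fold rule (9 on FPKM and on library totals), with a summed TPM of 656 and 1656. Krt8 was 3.62-fold higher (3.51 to 3.74), Krt18 3.99-fold (3.83 to 4.17) and Krt19 2.15-fold (2.06 to 2.23), all beyond the 1.85-fold of Cdh1. For squamous epithelium, 4 of 6 were higher and the sum went from 197 to 378, with Krt5 at 25.1 and 127, Krt14 at 8.09 and 58.9, and Krt15 at 151 and 178. Pluripotent cells also carry Cdh1, and 8 of 8 of their markers were higher and passed the rule, 6 of them past the filter in the mutant library alone, with a summed TPM of 78.4 and 1926. Pou5f1 had a TPM of 19.0 and 304, Nanog 8.37 and 116, Dppa4 2.06 and 54.6, and Dppa5a 29.1 and 1144. For visceral endoderm and liver, another epithelium, the sum of 4 markers went from 4.52 to 261, with Afp at 0.614 and 151, Ttr at 1.32 and 41.1 and Apoa1 at 2.45 and 61.1.

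For mesenchyme, where Cdh11 and Cdh2 are known, 9 of 9 markers were higher, 4 passed the rule (5 on FPKM and on library totals) and the summed TPM went from 712 to 1670, whereas Cdh11 and Cdh2 were lower. Col3a1 was 2.74-fold higher (2.70 to 2.78), Col1a2 3.47-fold (3.39 to 3.55), Lum 3.72-fold (3.56 to 3.89) and Dcn 1.65-fold (1.61 to 1.69). For cartilage and bone, of 8 measured markers 6 were higher and 2 lower, with a sum of 119 and 129. Sox9 was 2.61-fold lower (2.47 to 2.75), Col2a1 had 58.0 and 74.8, Col9a1 14.3 and 13.7, Ibsp 0.659 and 12.2, and Col10a1 0.133 and 3.87. Matn1 had 0 reads in the wild-type library and 46 in the other. For vessel walls, which carry Cdh5 and Cdh13, 5 of 6 markers were higher, and the sum was 74.5 and 84.7. Only 2 of the 6, Pecam1 and Emcn, passed the TPM filter, and 0 of these passed the rule. The others, Tek among them, could not be called. Pecam1 had 27.6 and 31.6, Emcn 22.6 and 23.2, Cldn5 7.77 and 9.25, Kdr 7.98 and 6.01, and Tek 2.21 and 6.44. Cdh5, Pecam1 and Emcn were at nearly equal levels, Kdr was 1.33-fold lower (1.22 to 1.45) and Tek 2.92-fold higher (2.53 to 3.37). Cdh13 is found on neurons as well as vessel walls, and the part of either in its lower level was not tested.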

How the data were processed

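The labels placed 1 library in each of 2 groups by genotype. Per the submitters' processing notes, bcl2fastq 2.20.0, Trimmomatic, HISAT2 2.1.0 and StringTie 2.1.3b were used, and strandedness is not given in the sources used here. Per gene the authors deposited raw read counts, FPKM (scaled by transcript length and library) and TPM (rescaled to a fixed sum). Of 45777 gene identifiers, 45679 matched a RefSeq table of GRCm38.p6, which gave positions.

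Folds are ratios of deposited TPM. Their exact Clopper-Pearson intervals come from the read counts, and log2 ratios have 1 added to each TPM. Calls followed the study's rule as worded, and lists used genes that reached a TPM of 1. Over all genes that rule called 1253 higher and 2167 lower here, more in each direction than the paper reported. The reason for this gap was not tested. The named genes were all members, all other classical and type II cadherins, the 3 of highest mean TPM and the 2 of largest log2 ratio in each other list, and the nearest expressed neighbours on chromosome 8. Zeb2, Ovol1, Elavl4, Arvcf, Matn1 and the desmosomal genes at 0 reads were named after their values were seen, and some genes that the rule names are not reported here. Members, lists and motifs were chosen with earlier results of these data known. Alternatives were FPKM, reads scaled by library totals, edgeR TMM factors or median-of-ratios size factors, centring, a pseudocount of 0.1, other TPM filters and folds of 1.5 and 3. Scripts were tested on simulated data. The tools were edgeR 4.0.16 in R 4.3.3, and scipy 1.17.1, numpy 2.4.6, pandas 2.3.3 and matplotlib 3.10.9 in Python 3.11.15. No p-value was computed, and 0 sample columns were left unused.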

Additional observations from a re-analysis of the deposited data

How the results depend on the processing

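No paired analysis was possible because each group holds 1 library, and for the same reason no library could be left out. The main results had 68 alternative values, of which 52 stayed within a set range and 16 did not. That range was a factor of 1.5 for counts and otherwise rested on the counting intervals of the members. For medians over members it used the medians of the interval ends, which is not a counting interval of the median itself. The cause of the 16 moves was not tested, except where fewer or other genes entered by construction.

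Members called higher, 0 on TPM, numbered 1 (Cdh1) with FPKM, with library totals and with TPM centred on the median of all genes, and 2 at a fold above 1.5 (with Cdh6). Members called lower, 5 on TPM, numbered 2 when both libraries had to reach a TPM of 10 and 3 without chromosome 8. The median log2 ratio of the members, -1.27, was -1.15 with FPKM, -1.08 with library totals, -1.09 when centred and -1.68 with a pseudocount of 0.1. The distance between epithelial and neural medians, 2.06, was 2.82 with a pseudocount of 0.1 and 4.08 on chromosome 8 alone (Cdh1 and Cdh3 against Cdh8). Relative to the 10 Mb window instead of chromosome 8, Cdh1 was at 1.62, Cdh8 at -2.78, Cdh11 at 0.089 and Cdh13 at -1.85. Relative to its window, an alternative chosen after seeing the data, Cdh6 changed sign to -0.27. The median of the repressors of Cdh1 was -0.042 with only genes at a TPM of 10 or more. Of 224 values of single genes and other lists, 174 stayed within counting error (genes) or 1.5 times (lists) and the others did not. In all, 7 values changed sign: 5 of Cdh3 (from -0.02 to between 0.04 and 0.16) and the 2 of Cdh6 and the repressors given above. Counting error is small for members other than Cdh7, Cdh8 and Cdh10, which had at most 195 reads in the mutant library.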

Other observations

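Lists outside the main comparison were read in the same way, beside 18.7% of all genes past the TPM filter called lower and 10.8% called higher. Of 5 skeletal muscle markers, 4 were lower. Of the 4 past the TPM filter, 2 passed the fold rule, Myh3, an embryonic myosin, 4.62-fold lower (4.29 to 4.98), and Ckm 2.57-fold lower (2.18 to 3.05). Both reached a TPM of 10 in the wild-type library alone and so had to be lower. Acta1 had a TPM of 33.6 and 18.2, and Myog 19.9 and 10.2. The muscle cadherin Cdh15 was 1.33-fold lower (1.06 to 1.67). Of 4 smooth muscle markers, 4 were higher, 2 passed the TPM filter and 1 of these passed the rule. Tagln was 4.21-fold higher (3.85 to 4.62), with Acta2 at 49.0 and 52.6 and Cnn1 at 1.30 and 2.73. Of 5 macrophage markers, 5 were higher, 4 passed the TPM filter and 1 of these passed the rule. Lyz2 was 2.07-fold higher (2.02 to 2.11), with C1qa at 150.2 and 215, Csf1r at 21.3 and 26.7 and Ptprc at 1.995 and 4.91.

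Cdh10, Cdh9, Cdh12, Cdh18 and Cdh6 form a run of type II cadherins on chromosome 15. From one end to the other their log2 ratios were 0.73 for Cdh6, -0.06 for Cdh9, -2.21 for Cdh10, -0.14 for Cdh12 and -0.94 for Cdh18. Cdh9 and Cdh12 were too scarce to read, at a TPM of 0.794 and 0.168 in the wild-type library, where 1 added to each TPM pulls a ratio to 0. Cdh12 had 67 and 32 reads and was 2.90-fold lower (1.88 to 4.57) in TPM but 2.03-fold lower in reads scaled by library total.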
